A study of Mus musculus with 4 samples.

Results

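The acute-phase proteins described here are 7 secreted proteins of inflammation, encoded by Saa1, Saa2, Saa3, Lcn2, Hp, Orm1 and Ptx3. They were taken by gene symbol from a table of 39179 mouse genes, and all 7 were found. The symbols were chosen with the difference between the groups already known, so the members' own difference is given as a description and nothing is tested on it. RNA came from embryonic fibroblasts (MEFs) of BALB/c mice at passage 2, sequenced in 4 libraries. The 2 SON libraries were made from cells that a lentivirus had given the germ line and early embryo genes Stella (Dppa3), Oct4 (Pou5f1) and Nanos2. The 2 GFP control libraries were made from cells that had received a GFP lentivirus. Both groups passed through puromycin (2 µg/ml, begun 72 h after the virus and kept for 4 days) and then 21 days without it, so infection and drug selection are common to all libraries.

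Acute-phase proteins are plasma proteins whose synthesis in the liver rises within hours of infection or injury. Interleukin-1 and interleukin-6 drive that response through NF-kappaB, STAT3 and C/EBP transcription factors. Some members are also made outside the liver, by fibroblasts, fat cells, epithelia and myeloid cells. Serum amyloid A3 (Saa3) is the extrahepatic serum amyloid A of the mouse, whereas Saa1 and Saa2 are the forms that the liver secretes onto high-density lipoprotein. Lipocalin 2 (Lcn2) withholds iron from bacteria by binding their siderophores, haptoglobin (Hp) captures free haemoglobin, orosomucoid (Orm1) is a drug-binding glycoprotein of plasma, and the long pentraxin Ptx3 is an opsonin that stroma and myeloid cells secrete.

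The promoters of the members are shown because the genes share inducers, and because Saa1 and Saa2 are near copies while Saa3 is not. Of the 7 genes, 5 matched the RefSeq promoter table of GRCm38.p6 (Saa1, Saa2, Saa3, Lcn2 and Ptx3), which gives 250 bases before and 50 after the start site. Capitals mark matches on either strand to a C/EBP motif, written TTGCNNAA, and to a loose kappaB motif, GGG and CC with 5 bases of any kind between them (N is any base).
Saa3 (chr7:46715627-46715926, minus strand): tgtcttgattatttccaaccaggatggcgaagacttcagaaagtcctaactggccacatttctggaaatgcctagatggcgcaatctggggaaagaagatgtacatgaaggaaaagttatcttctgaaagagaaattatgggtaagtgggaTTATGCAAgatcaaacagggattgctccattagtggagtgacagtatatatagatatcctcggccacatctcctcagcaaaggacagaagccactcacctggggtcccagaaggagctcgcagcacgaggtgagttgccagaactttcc
Lcn2 (chr2:32387690-32387989, minus strand): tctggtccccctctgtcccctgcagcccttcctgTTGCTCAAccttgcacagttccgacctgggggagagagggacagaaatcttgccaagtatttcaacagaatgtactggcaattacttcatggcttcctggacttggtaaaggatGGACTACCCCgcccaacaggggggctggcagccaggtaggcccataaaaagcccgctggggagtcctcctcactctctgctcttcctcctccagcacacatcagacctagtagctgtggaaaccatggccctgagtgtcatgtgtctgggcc
Ptx3 (chr3:66219637-66219936, plus strand): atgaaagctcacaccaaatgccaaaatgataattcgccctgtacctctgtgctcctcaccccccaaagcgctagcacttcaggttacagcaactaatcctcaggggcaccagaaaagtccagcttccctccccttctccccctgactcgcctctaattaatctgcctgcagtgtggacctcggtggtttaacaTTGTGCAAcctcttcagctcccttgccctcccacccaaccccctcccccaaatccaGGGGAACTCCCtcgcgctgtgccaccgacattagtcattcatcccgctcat
Saa1 (chr7:46742931-46743230, minus strand): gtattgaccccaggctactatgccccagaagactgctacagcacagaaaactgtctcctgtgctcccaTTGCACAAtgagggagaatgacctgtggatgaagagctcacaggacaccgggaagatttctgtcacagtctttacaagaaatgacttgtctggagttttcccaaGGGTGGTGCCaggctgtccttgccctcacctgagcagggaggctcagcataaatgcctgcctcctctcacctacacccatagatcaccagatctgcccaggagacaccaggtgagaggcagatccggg
Saa2 (chr7:46751583-46751882, plus strand): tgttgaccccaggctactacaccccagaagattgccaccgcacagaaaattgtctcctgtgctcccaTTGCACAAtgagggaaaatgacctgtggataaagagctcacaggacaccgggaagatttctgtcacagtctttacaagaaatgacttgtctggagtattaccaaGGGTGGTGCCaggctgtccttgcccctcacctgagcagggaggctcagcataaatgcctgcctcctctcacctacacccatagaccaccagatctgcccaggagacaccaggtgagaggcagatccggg

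Each of the 5 windows held 1 match to the C/EBP motif, which 10.8% of all 32851 promoters in the table hold. In Saa3 the match was TTATGCAA at -99 to -92 from the start site, in Ptx3 TTGTGCAA at -57 to -50, and in Lcn2 TTGCTCAA at -216 to -209. Saa1 and Saa2 both carried TTGCACAA, at -182 to -175 and at -183 to -176. The loose kappaB motif is common (50.8% of all promoters) and was matched once in Saa1, Saa2 and Lcn2, 2 times with overlap in Ptx3, and not in the Saa3 window. The STAT motif TTCNNNGAA, held by 8.30% of promoters, had no match in the 5 windows. No C/EBP match overlapped a kappaB match. The Saa1 and Saa2 windows were identical at 95.3% of 301 aligned positions, and Saa1 and Saa3 at 50.9%.

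Saa3 dominated the serum amyloid A genes. Saa3 (ENSMUSG00000040026, chromosome 7, 46711998 to 46715700, GRCm38) had 9602 normalized counts in SON I and 16426 counts in SON II, against 184002 in GFP control I and 89435 in GFP control II. Normalized counts are reads divided by 1 size factor per library. Both SON libraries lay below both GFP control libraries, and the smallest GFP control value was 5.44-fold the largest SON value. The log2 difference (SON minus GFP control, on normalized count + 1) was -3.35 ± 0.45 (SE, n = 2 each). By reads, Saa3 held rank 351 in SON I and rank 139 of all genes in SON II, against rank 7 in GFP control I and rank 9 in GFP control II. Of the reads on Saa1, Saa2 and Saa3 together, at least 99.98% in each library were Saa3 reads (Wilson 95% interval in GFP control II, the lowest library, 99.97% to 99.99%).

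The liver forms were near the limit of detection. Saa1 (ENSMUSG00000074115, chromosome 7, 46740497 to 46742980) had 0 reads in SON I and 2 reads in SON II, against 26 in GFP control I and 23 in GFP control II. The ratio of GFP control to SON over the pooled reads was 12.0 (exact 95% interval 3.16 to 102). Saa2 (ENSMUSG00000057465, chromosome 7, 46751790 to 46754313) had 0 reads in both SON libraries, against 7 in GFP control I and 6 in GFP control II. Against a floor of 3 reads over the SON group, Saa2 was at least 2.13-fold lower in SON, a figure that leaves out the counting error of the 13 GFP control reads. With that error, the exact 95% lower limit of the ratio of GFP control to SON was 1.5. Counting error is all that these intervals and floors cover. The first annotated transcripts of Saa1 and Saa2 were identical at 93.9% of 609 aligned positions, and 13.2% of the 50-base windows of Saa1 occur unaltered in Saa2, so the split of reads between these genes is uncertain. The Saa1 and Saa3 transcripts were identical at 62.2% of positions, and 1.61% of the Saa1 windows occur in Saa3. Saa3 had 7042 and 11182 reads in SON, against 220303 and 150456 in the GFP control. Whether a very small part of these reads was counted as Saa1 was not tested, so the Saa1 ratio may not be independent of Saa3.

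Lipocalin 2 and haptoglobin were the members with intermediate counts. Lcn2 (ENSMUSG00000026822, chromosome 2, 32384633 to 32388252) had 533 normalized counts in SON I and 1127 counts in SON II, against 4098 in GFP control I and 1610 in GFP control II. The groups did not overlap, but SON II came within 1.43-fold of GFP control II. The log2 difference of Lcn2 was -1.73 ± 0.55 (SE, n = 2 each), and it was -1.05 without GFP control I. Hp (ENSMUSG00000031722, chromosome 8, 109575128 to 109579172) had 165 normalized counts in SON I and 118 counts in SON II, against 1932 in GFP control I and 965 in GFP control II. Its groups lay at least 5.85-fold apart. The log2 difference of Hp was -3.28 ± 0.38 (SE, n = 2 each), close to that of Saa3.

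Ptx3 kept to a narrow range over the libraries, while Orm1 was barely read. Ptx3 (ENSMUSG00000027832, chromosome 3, 66219910 to 66225805) had 4337 normalized counts in SON I and 5726 counts in SON II, against 7414 in GFP control I and 6134 in GFP control II. SON II and GFP control II differed by 1.07-fold, and the log2 difference was -0.44 ± 0.20 (SE, n = 2 each), or -0.24 without SON I. Ptx3 lies within the span of Veph1 on the other strand, and the libraries carry no strand, but Veph1 had between 29.4 and 49.9 normalized counts. Orm1 (ENSMUSG00000039196, chromosome 4, 63344560 to 63348163) had 1 read in SON I and 2 reads in SON II, against 0 in GFP control I and 6 in GFP control II. The groups overlapped, and the ratio of GFP control to SON was 0.982 (exact 95% interval 0.210 to 6.07). Orm1 and its neighbour Orm2 were identical at 91.0% of transcript positions, so these few reads cannot be assigned with certainty.

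**Figure D1:**
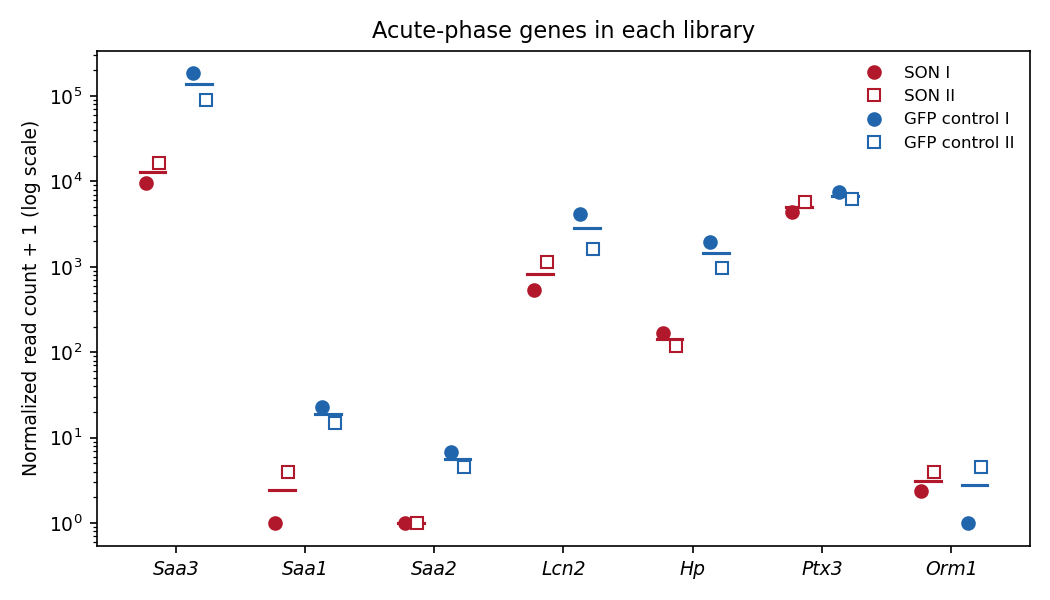
Normalized read count + 1 of the 7 acute-phase genes (log scale) in each SON library (red, left) and GFP control library (blue, right), with a bar at each group mean. Before the 1 is added, Saa3 spans 9602 to 184002 normalized counts and Hp 118 to 1932. The 4 Ptx3 values lie between 4337 and 7414, and Orm1 stays at or below 3.57.

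A filter on low counts kept 5 members (Saa1, Saa3, Lcn2, Hp and Ptx3), and Saa1 passed it only through the GFP control libraries. The SON libraries lay below the GFP control libraries without overlap in these 5, where 23.7% of the 15283 genes tested did so. Limma called 0 of the 5 lower at an adjusted p under 0.05, where 0.0196% of genes were called, and 4 had an unadjusted p under 0.05, where 6.57% did. edgeR (0.0196% of genes called lower) and limma voom (0.00654%) called 0 of them, DESeq2 called Saa3, Lcn2 and Hp (2.7%), and the authors' deposited table lists the same number, 3, as lower (2.59%). As the members were chosen on this contrast, nothing is read from these counts.

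The members differed among themselves in size of difference. Saa3, Hp and Saa1 had log2 differences between -3.35 and -3.20, Lcn2 lay at -1.73 and Ptx3 at -0.44, around a median of -3.20, beside a median of -0.01 over all tested genes. The place of Saa1 beside Saa3 and Hp rests on its few reads and the pseudocount: its log2 difference was -4.97 with a pseudocount of 0.1, -1.27 with one of 10 and -2.21 without SON I. The median, which is the value of Saa1, was -1.72 with a pseudocount of 10 and -2.21 without SON I. The ratio of Saa3 to Lcn2 normalized counts was 18.0 in SON I and 14.6 when taken in SON II, against 44.9 in GFP control I and 55.6 in GFP control II. That of Saa3 to Ptx3 was 2.21 and 2.87 in the SON libraries, against 24.8 and 14.6 in the GFP control libraries. The Saa3 to Hp ratio did not separate the groups, at 58.2 and 140 in the SON libraries, against 95.2 and 92.6 in the GFP control libraries. The ratios of Saa3 to Lcn2 and of Saa3 to Ptx3 did separate them. For Ptx3 that had to follow, as the Saa3 groups lay at least 5.44-fold apart and the Ptx3 groups at most 1.71-fold. As the members were chosen on this contrast, the ratios are a description.

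Per kilobase of the first annotated transcript, Saa3 stood above the others in every library. It had 17301 normalized counts per kilobase in SON I and 29596 per kilobase in SON II, against 331536 in GFP control I and 161145 in GFP control II. Ptx3 followed with 2285 and 3017 in SON, against 3906 and 3232 in the GFP control. Lcn2 had 583 and 1231 per kilobase in SON, below Ptx3 in both, against 4479 and 1759 in the GFP control, where it lay above Ptx3 in GFP control I and below it in GFP control II. Hp came next with 123 and 87.4 per kilobase in SON, against 1436 and 718 in the GFP control. With the length of all annotated exons in place of that transcript, the group means kept the order Saa3, Ptx3, Lcn2, Hp in both groups, but Saa3 came closer to Ptx3. Saa3 then averaged 4994 per kilobase in SON, against 52463 in the GFP control, and Ptx3 averaged 1876 in SON, against 2526 in the GFP control.

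The libraries of a group also stood apart. GFP control I exceeded GFP control II in all 5 tested members, by 2.06-fold for Saa3, 2.55-fold for Lcn2, 2.00-fold for Hp, 1.59-fold for Saa1 and 1.21-fold for Ptx3, where 51.8% of all tested genes did so. SON I lay below SON II for Saa3 (0.585 of its value), Lcn2 (0.473) and Ptx3 (0.758), and above it for Hp (1.40). Leaving out GFP control I gave log2 differences of -2.83 for Saa3, -2.78 for Hp and -1.05 for Lcn2. Leaving out GFP control II gave -3.87, -3.78 and -2.40. Whichever library was omitted, the 5 tested members kept a negative sign. That had to follow, as the groups did not overlap in any of the 5, so it tests nothing.

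**Figure D2:**
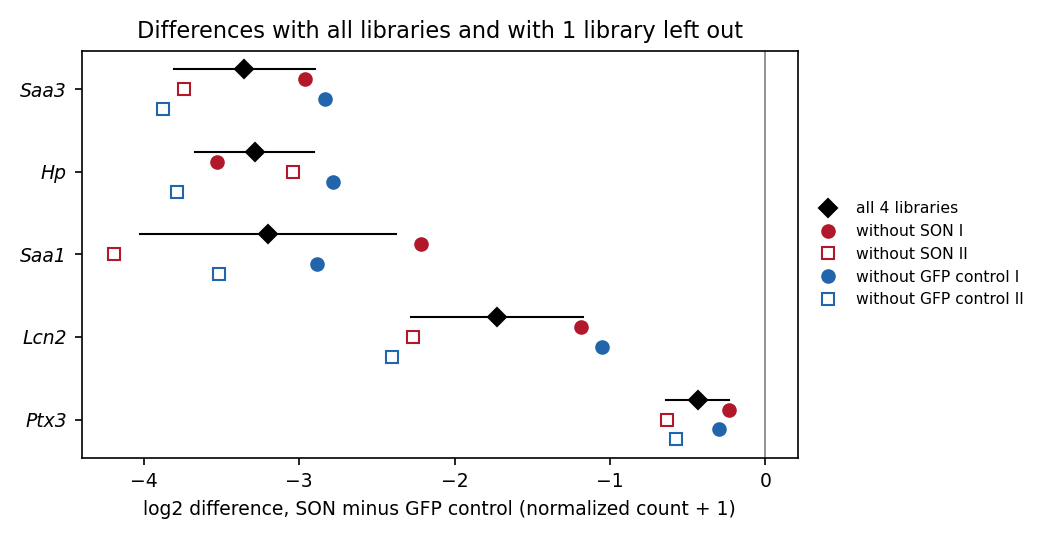
The log2 difference (SON minus GFP control) of the 5 tested members, with all libraries (diamond, with 1 standard error to each side) and with each library left out in turn (red, a SON library left out, blue, a GFP control library left out). All points lie below 0, as they must for groups that do not overlap. Saa3 lies between -3.87 and -2.83, Lcn2 between -2.40 and -1.05 and Ptx3 between -0.64 and -0.24.

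Other acute-phase genes lay mostly below the GFP control as well. Of 38 listed, 19 had enough reads to be tested, 16 lower and 3 higher in SON, with a median log2 difference of -1.22. The 3 higher were the neuronal pentraxin genes Nptx1 (log2 1.87) and Nptx2 (2.20) and the receptor gene Nptxr (0.30). These 3 are relatives of Ptx3 and not acute-phase genes, but the median and the counts include them. Cfb, with 2 and 4 reads in SON, against 16 and 22 in the GFP control, passed the filter only through the GFP control libraries. GFP control I exceeded GFP control II in 16 of the 19, where 51.8% of all tested genes did so. Without GFP control I the median was -0.96, with 16 lower. Liver products such as the fibrinogen chains, C-reactive protein and serum amyloid P were at or near 0 in all libraries, and 7 genes of the list had no read at all. Limma called 0 of the 19 (9 lower and 2 higher at an unadjusted p under 0.05), as did edgeR and limma voom, while DESeq2 called 6 lower and 1 higher. The authors' deposited table also lists 6 lower and 1 higher, which was Nptx2. The 2 higher at an unadjusted limma p were Nptx1 and Nptx2. Over all genes the calls higher in SON were 0.0327% with limma and with edgeR, 0.0196% with limma voom, 1.67% with DESeq2, 1.48% in the authors' deposited table and 5.99% at an unadjusted limma p. The calls lower were 2.7% with DESeq2, 2.59% in the authors' deposited table and 6.57% at an unadjusted limma p. Steap4, a metalloreductase induced in inflammation, had 327 and 278 normalized counts in SON, against 3224 and 1861 in the GFP control (log2 -3.02, limma adjusted p = 0.170). Cp, the copper-carrying ferroxidase ceruloplasmin, had 1704 and 1779 in SON, against 5674 and 3575 in the GFP control (log2 -1.37, limma adjusted p = 0.230). For both genes the SON values lay close together and apart from both GFP control values. Both were named for a small adjusted p in the authors' deposited table, a choice that favours such a pattern.

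A2m, a broad protease inhibitor, had 53.2 and 20.6 normalized counts in SON, against 503 and 122 in the GFP control. Serpina3g, a serine protease inhibitor, had 3157 and 4264 in SON, against 9680 and 7595 in the GFP control. C3, the central complement protein, had 2048 and 4297 in SON, against 12528 and 4733 in the GFP control. The C3 groups came within 1.10-fold of each other through SON II and GFP control II, closer than those of Lcn2 (1.43-fold). Mt2, a metal-binding metallothionein, had 1043 and 4424 in SON, against 5406 and 4069 in the GFP control, so its groups overlapped.

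**Figure D3:**
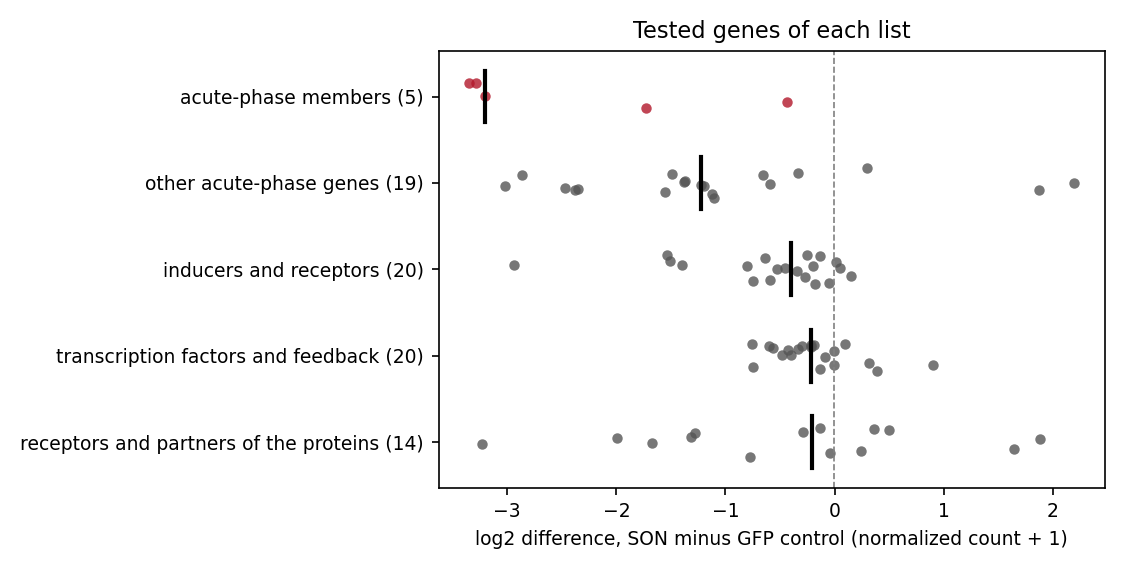
The log2 difference (SON minus GFP control) of each tested gene in the acute-phase members (red, 5 genes) and in the 4 lists of related genes (grey), with a black bar at each list's median and a dashed line at the median of all tested genes. The medians run from -3.20 for the members and -1.22 for other acute-phase genes to -0.40, -0.22 and -0.21 for the inducers, the transcription factors and the partners. The list of other acute-phase genes includes the neuronal pentraxin genes Nptx1, Nptx2 and Nptxr, its only tested genes higher in SON.

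Among the cytokines and receptors that induce acute-phase genes, 20 of 24 were tested, 17 lower and 3 higher, with a median log2 difference of -0.40. Limma called 0 (6 lower unadjusted), as did edgeR and limma voom, and DESeq2 and the authors' deposited table each gave 5 lower. Over all genes the shares lower were 6.57% unadjusted, 2.7% with DESeq2 and 2.59% in the authors' deposited table. Il1a, the alpha form of interleukin-1, had 45.0 and 54.4 normalized counts in SON, against 394 and 377 in the GFP control. Its log2 difference was -2.94 ± 0.24 (SE, limma adjusted p = 0.0958), and the libraries of each group lay close together. Il1a too was named for a small adjusted p in the authors' deposited table. Il1b had 0 and 1 reads in SON, against 5 and 6 in the GFP control, and the filter removed it, as it did Tnf and Osm.

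The receptor of interleukin-1, Il1r1, had 2902 and 2162 normalized counts in SON, against 10003 and 5095 in the GFP control (log2 -1.51, limma adjusted p = 0.270). Its partner chain Il1rap had 2218 and 2161 in SON, against 4205 and 3478 in the GFP control (log2 -0.80, limma adjusted p = 0.239). Neither pair of groups overlapped. Of the list's 20 tested genes, 11 lay below without overlap, where 23.7% of all tested genes did. Il6, the main inducer of the response in liver, had 1212 and 752 in SON, against 3695 and 2079 in the GFP control (log2 -1.54, limma adjusted p = 0.269). The shared receptor chain Il6st overlapped between the groups, with 8359 and 5501 in SON, against 11679 and 7350 in the GFP control. Osmr, the oncostatin M receptor, had 5880 and 4856 in SON, against 10970 and 7289 in the GFP control, and the tumour necrosis factor receptor Tnfrsf1a had 3688 and 4194 in SON, against 4782 and 3866 in the GFP control. The median of the list was -0.13 without GFP control I (13 of 20 lower) and -0.66 without GFP control II. GFP control I exceeded GFP control II in all 20 tested genes of the list, where 51.8% of all tested genes did so.

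The transcription factors and feedback regulators of the response lay closer to the GFP control. Of 22, 20 were tested, 16 lower and 4 higher, with a median of -0.22 and 0 limma calls (4 lower and 1 higher unadjusted). Over all tested genes 6.57% were lower and 5.99% higher unadjusted. edgeR, limma voom, DESeq2 and the authors' deposited table also gave 0. Stat3, the factor that interleukin-6 activates, had 6289 and 5124 in SON, against 7103 and 5879 in the GFP control. Nfkbiz, a nuclear co-regulator of NF-kappaB that Lcn2 needs for induction in mouse cells, had 2467 and 5514 in SON, against 4697 and 3910 in the GFP control. Both Stat3 and Nfkbiz overlapped between the groups. Nfkb1, the p50 subunit, had 2431 and 2443 in SON, against 3734 and 2883 in the GFP control, and its inhibitor Nfkbia had 1812 and 2258 in SON, against 2604 and 1892 in the GFP control. The median was -0.05 without GFP control I (11 of 20 lower), -0.09 without SON I, -0.44 without SON II and -0.41 without GFP control II. GFP control I exceeded GFP control II in 19 of the 20, against 51.8% of all tested genes.

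The last list held receptors and binding partners of the proteins. Of 22, 14 were tested, 9 lower and 5 higher, with a median of -0.21 and 0 limma calls (4 lower and 2 higher unadjusted). edgeR and limma voom called 0, and DESeq2 and the authors' deposited table each gave 3 lower and 1 higher. Over all genes DESeq2 called 2.7% lower and 1.67% higher, and the authors' deposited table lists 2.59% and 1.48%. Unadjusted, the shares over all tested genes were 6.57% lower and 5.99% higher. The median was -0.35 when GFP control II was omitted, -0.49 when SON II was, -0.26 when GFP control I was and -0.17 when SON I was. Mmp9, a gelatinase that lipocalin 2 binds in human neutrophils, had 435 and 658 normalized counts in SON, against 6663 and 3806 in the GFP control (log2 -3.23, limma adjusted p = 0.170). Tnfaip6, a hyaluronan-binding protein that joins Ptx3 in matrix, had 228 and 131 in SON, against 747 and 408 in the GFP control (log2 -1.67, limma adjusted p = 0.270). C1s1, which encodes a protease of complement C1, had 1368 and 2325 in SON, against 6246 and 3155 in the GFP control. In these 3 genes no SON value reached a GFP control value. Of the 14 tested, 6 lay below and 4 above without overlap, where 23.7% and 22.2% of all tested genes did.

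Lrp2, the endocytic receptor megalin that takes up lipocalin 2, had 273 and 165 normalized counts in SON, against 53.5 and 84.4 in the GFP control (log2 1.64, limma adjusted p = 0.269). It was thus on the opposite side to its ligand's gene. Lrp1, a receptor that clears haem bound to haemopexin, had 32617 and 37493 in SON, against 43992 and 29412 in the GFP control. Hmox1, which breaks down haem, differed more by library numeral than by group, with 5023 and 25711 in SON, against 4645 and 16804 in the GFP control. Cd163, the macrophage receptor for haptoglobin with haemoglobin, had between 2.73 and 7.52 normalized counts in the 4 libraries and was not tested.

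**Figure D4:**
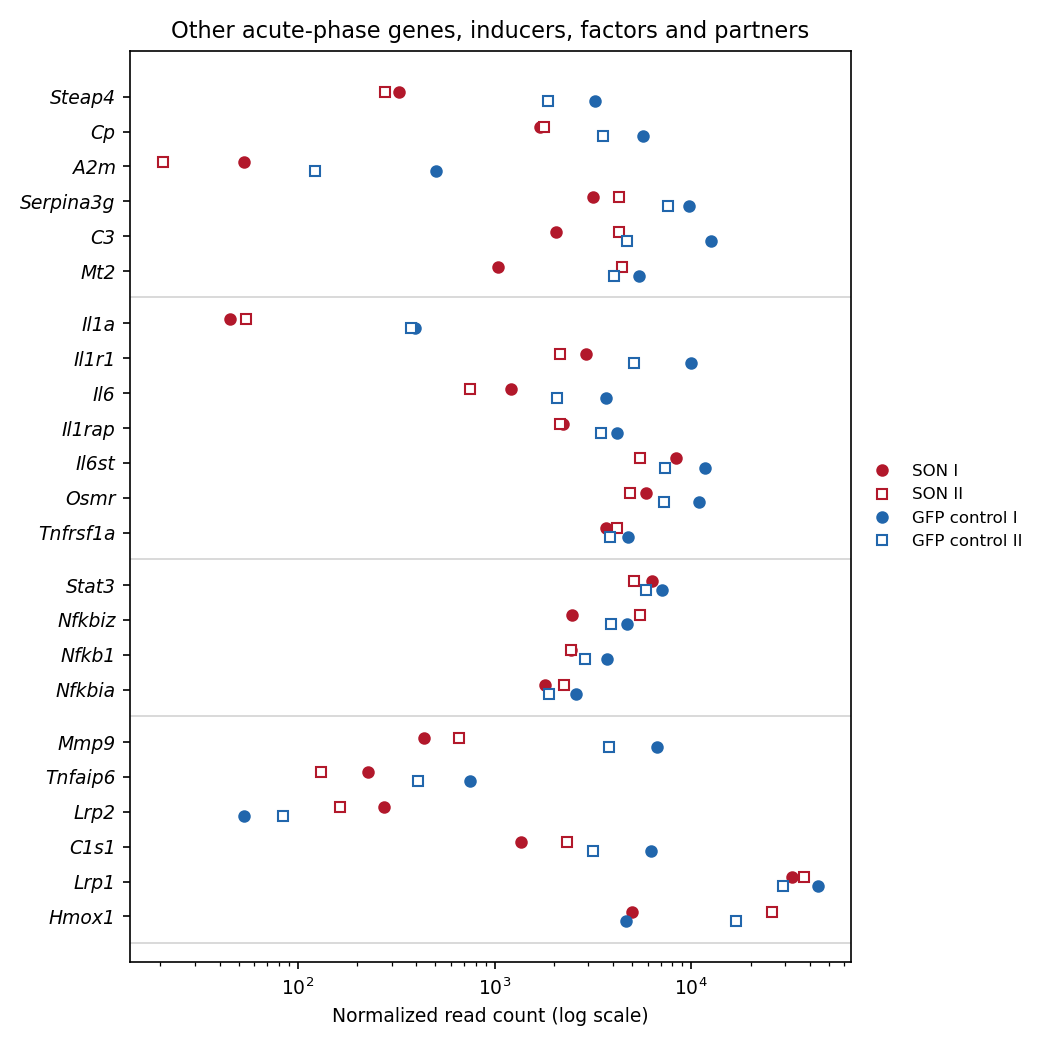
Normalized read counts (log scale) in the SON libraries (red) and the GFP control libraries (blue) for genes named from the 4 lists, from other acute-phase genes at the top to receptors and partners at the bottom. Steap4, Il1a and Mmp9 show SON points well to the left of the GFP control points, whereas Stat3, Nfkbiz, Lrp1 and Hmox1 overlap and Lrp2 lies to the right.

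Genes beside the members were measured to see how local the differences were. Within 100000 bases of a member, 25 further genes were tested, 15 lower and 10 higher in SON, with a median log2 difference of -0.09. Limma called 0 of them, and DESeq2, edgeR and limma voom also called 0. At an unadjusted p under 0.05, 4 of the 25 were lower in SON, as the members are, and 0 were higher, where 6.57% of all tested genes were lower. These were Dnm1 (log2 -1.10) and Swi5 (-0.35) near Lcn2, Akna (-0.94) near Orm1 and Ldha (-0.56) near Saa2. The genes closest to Saa3 and Hp differed little. Saal1, which lies 1318 bases from Saa3, had 465 and 373 normalized counts in SON, against 439 and 410 in the GFP control. Txnl4b, 1077 bases from Hp, had 184 and 170 in SON, against 193 and 184 in the GFP control. Saa4, the constitutive serum amyloid A gene of the same cluster, had 0 and 4.41 normalized counts in SON, against 7.52 and 8.92 in the GFP control, and was not tested. The 25 genes were taken by position, and those named were picked after their values were seen.

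The genes most like each member were found by the distance between centred log2 profiles over the 4 libraries, among 4856 genes with a mean of at least 1000 normalized counts. This measure follows the size of the difference as well as its shape. Nearest to Saa3 were Mmp9 (distance 0.24), the eotaxin gene Ccl11 (0.26) and Lrrc15 (0.62), and nearest to Hp were Steap4 (0.35), Lrrc15 (0.65) and the lipase gene Lpl (0.71). Lcn2 had C3 (0.35), the chemokine gene Cxcl1 (0.43) and Igsf10 (0.44) as its neighbours, and Ptx3 had Sirpa (0.05), Gatsl2 (0.06) and Dab2 (0.08). The collagenase and stromelysin genes Mmp13 (0.39), Mmp3 (0.50) and Mmp10 (0.72) were nearest to Saa1, whose own profile rests on 51 reads. Between members, Saa3 lay at 0.89 from Hp and at 1.65 from Lcn2.

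The delivered genes matched the labels. Dppa3, Pou5f1 and Nanos2 had between 295 and 449 normalized counts in the SON libraries, against at most 0.594 in the GFP control libraries. Total reads in genes were 14680865 to 17365551 in SON, against 28924700 to 37097571 in the GFP control. Markers of cells that make these proteins in the body differed between the groups to different degrees, and bulk RNA cannot tell fewer cells of a type from less RNA per cell. Limma, edgeR and limma voom called 0 genes of the 6 marker lists. Over all genes DESeq2 called 2.7% lower and 1.67% higher, and the authors' deposited table lists 2.59% and 1.48%. The counts of the marker lists below are to be read beside these shares.

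The summed level of 12 neutrophil markers was 90.0 to 231 in SON, against 260 to 274 in the GFP control, and 7 of the 12 had a mean of at most 5 normalized counts, among them Ly6g, S100a9, Elane and Ltf. The other 5 were tested and lower in SON, with a median log2 difference of -0.78 that ran from -1.04 without SON II to 0.24 without SON I. Mmp8, the neutrophil collagenase, had 2.73 and 10.3 normalized counts in SON, against 90.2 and 63.0 in the GFP control, and DESeq2 and the authors' deposited table each gave it as the 1 lower gene of the list. Camp had 38.2 and 41.1 in SON, against 89.4 and 52.9 in the GFP control, while S100a8 overlapped, with 6.82 and 104 in SON, against 34.2 and 86.8 in the GFP control.

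For 12 macrophage markers the sum was 477 to 1285 in SON, against 1422 to 1501 in the GFP control. All 8 tested were lower in SON, with a median of -0.72 (-0.15 without SON I and -1.31 without SON II), and DESeq2 and the authors' deposited table gave 0. Cd53 had 164 and 413 in SON, against 427 and 537 in the GFP control. Lyz2, the macrophage lysozyme gene, had 43.6 and 306 in SON, against 352 and 377 in the GFP control, and Cd14 had 136 and 195 in SON, against 418 and 229 in the GFP control. Of the 8 tested, these 3 alone did not overlap between the groups, where 23.7% of all tested genes lay below without overlap. Spi1 stayed at no more than 3.57.

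For 10 adipocyte markers the sum was 1187 to 1308 in SON, against 4944 to 15922 in the GFP control. Of 6 tested, 4 were lower and 2 higher, with a median of -1.30, and DESeq2 and the authors' deposited table each gave 2 lower. Lpl, the lipoprotein lipase gene, had 1038 and 824 in SON, against 14931 and 3908 in the GFP control, and Fabp4 had 113 and 225 in SON, against 848 and 846 in the GFP control. Pparg, the fat cell transcription factor, lay on the other side, with 106 and 98.4 in SON, against 56.8 and 71.3 in the GFP control. Adipoq, the gene of adiponectin, had 8.18 and 14.7 in SON, against 26.7 and 52.9 in the GFP control, and Plin1 and Cidec were at no more than 14.9.

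Hepatocyte markers, 10 in number, summed to 40.9 to 42.6 in SON, against 93.3 to 1214 in the GFP control, and 2 were tested, 1 lower and 1 higher. Alb, the gene of albumin, had 21.8 and 19.1 normalized counts in SON, against 1206 in GFP control I and 71.9 in GFP control II, and was called lower by DESeq2 but not in the authors' deposited table. Apob had 16.4 and 16.2 in SON, against 5.85 and 14.9 in the GFP control. Hnf4a, Apoa1, Apoa2, Ttr, Ahsg and Serpina1c had at most 2.94 normalized counts in any library. The 10 epithelial markers summed to 664 to 997 in SON, against 186 to 386 in the GFP control, with 1 lower and 2 higher of 3 tested and 2 higher by DESeq2 and in the authors' deposited table. Dsp, a desmosome gene, had 224 and 695 in SON, against 18.4 and 89.8 in the GFP control, Krt19 had 295 and 197 in SON, against 90.2 and 120 in the GFP control, and Krt18 overlapped, with 132 and 52.9 in SON, against 59.3 and 146 in the GFP control.

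The 12 fibroblast markers, all tested, summed to 437272 to 491798 in SON, against 513060 to 980928 in the GFP control. Of them, 8 were lower and 4 higher, with a median of -1.04 (-0.38 without GFP control I and -1.60 without GFP control II). DESeq2 and the authors' deposited table each gave 5 lower and 0 higher, where 2.7% and 2.59% of all genes were lower. Fn1, the gene of fibronectin, had 207671 and 176773 in SON, against 141581 and 133895 in the GFP control. The collagen I chains Col1a1 and Col1a2 were lower, Col1a1 with 60940 and 49348 in SON, against 152385 and 68067 in the GFP control, and Col1a2 with 70712 and 48599 in SON, against 194382 and 92186 in the GFP control. Farther below lay the small proteoglycans Lum, with 1106 and 893 in SON, against 32440 and 6050 in the GFP control, and Dcn, with 8693 and 10142 in SON, against 89486 and 35605 in the GFP control. Postn, a matrix protein gene, had 16498 and 25977 in SON, against 149574 and 48239 in the GFP control, and the receptor gene Pdgfra had 3049 and 3806 in SON, against 15874 and 8611 in the GFP control. Lum, Dcn, Postn and Pdgfra were picked after their values were seen. Higher in SON in the authors' deposited table were Fn1 (log2 0.47), Thy1 (0.32), S100a4 (0.30) and Vim (0.27), none of them called. The part of these markers in the acute-phase differences was not tested.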

How the data were processed

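RNA was prepared with the TruSeq mRNA kit v2, per the labels, whose reads carry no strand. The submitters' processing notes name the genome GRCm38 (mm10) and the tools STAR 2.4.0j, TopHat2 2.0.11, featureCounts, HTSeq 0.5.3p3, CASAVA 1.8.1, Subread and DESeq2. Which of them made the gene table is not given. The deposited signal per gene is a read count that the authors divided by 1 size factor per library: all values were whole multiples of 1 step per library, within 0.01 reads. Per the file headers the deposited table also holds the authors' DESeq2 mean signal, log2 fold change, Wald score and p-value. The deposited repeat table was not used.

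Dividing by the step gave whole reads. The size factors were 0.733 and 0.681 in SON and 1.20 and 1.68 in the GFP control, so the limit allowed by a count of 0 (3 reads) was 4.09 and 4.41 normalized counts in SON and 2.51 and 1.78 in the GFP control. The main test was limma 3.58.1 in R 4.3.3, fitted to log2(value + 1) with a trend, two-sided, Benjamini-Hochberg adjusted p under 0.05 over 15283 genes kept by filterByExpr of edgeR 4.0.16. It was checked on simulated data. Alternatives were DESeq2 1.42.0, edgeR's quasi-likelihood test and limma voom on the recovered reads, other factors, pseudocounts (0.1 and 10), filters (none, or 1 CPM in 2 libraries), each library left out, and the replicate numeral as a block. Fold changes on this scale understate those of low genes.

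The members and lists were chosen with earlier results of these data known, and 1 gene is not reported here. From each list the text names genes called by limma, up to 4 with the smallest adjusted p in the authors' deposited table, and up to 4 with the highest mean, and from each marker list the 3 with the highest mean. Il1b, Tnf, Osm, Cd163, Saa4, the neighbours, other markers at or near 0, Adipoq, Lum, Dcn, Postn, Pdgfra, Thy1, S100a4 and Vim were named after their values were seen. So were Nptx1, Nptx2, Nptxr and Cfb. The table named 21019 genes and GENCODE M21 alone another 17090, and 2 listed symbols were matched through their identifiers. Nothing in the labels tells whether libraries of 1 group are separate cultures, and p-values then measure only the spread between libraries, which may be technical. The virus used coincides with the group, so an effect of the virus and one of its genes cannot be told apart.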

Additional observations from a re-analysis of the deposited data

How the results depend on the processing

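The log2 differences of the 5 tested members stayed negative under every alternative run. As their groups did not overlap, leaving out a library could not have changed the sign. Saa1 moved to -4.97 with a pseudocount of 0.1 and to -1.27 with one of 10, since it has few reads. The median over the members was -1.72 with a pseudocount of 10 and -2.51 with at least 1 CPM in 2 libraries, where Saa1 is not tested, and between -3.52 and -2.21 with a library left out. Over all genes limma called 5 higher and 3 lower, against 236 and 381 with DESeq2, 3 and 1 with limma voom, 3 and 3 with a pseudocount of 0.1, between 0 and 8 higher and between 0 and 24 lower with a library left out, and 4 and 7 with the replicate block. Among the 4 lists of related genes (19, 20, 20 and 14 tested), where limma called 0, DESeq2 called 2 higher and 14 lower, and the replicate block 1 lower. Over all genes DESeq2 called 1.67% higher and 2.7% lower. As the lists were chosen with earlier results of these data known, these counts are a description. The numerals I and II pair no libraries by the labels, and same-numbered libraries deviated together with a correlation of 0.218 across 15283 genes, which are not independent. For depth, Saa2 and Orm1 are limited to a handful of reads.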
